A study of Mus musculus with 6 samples.

Results

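The Ikaros family comprises Ikzf1 (Ikaros), Ikzf2 (Helios), Ikzf3 (Aiolos), Ikzf4 (Eos) and Ikzf5 (Pegasus). These 5 genes were taken by symbol from the 13564 genes of the deposited normalized table, and all 5 passed the filter on low counts. RNA was sequenced from 3 Foxo1TKO and 3 Foxo1Ctrl cultures, to ask how loss of the transcription factor Foxo1 in T cells alters what naive CD4 T cells (CD4N cells) become after activation. Foxo1TKO mice carry floxed Foxo1 and a Cre recombinase driven by Cd4, which deletes Foxo1 from the stage of the thymus at which cells bear both CD4 and CD8, so that the CD8 lineage lacks it too. Foxo1Ctrl mice carry floxed Foxo1 without Cre and were littermates of the Foxo1TKO mice. The labels give the strain as C57BL/6J, and the methods give mice of 3 months on a Foxp3-GFP background that both genotypes share. In both groups 50000 CD4N cells from lymph nodes were cultured for 4 days with anti-CD3 antibody at 0.1 µg/ml and 250000 splenocytes of CD3eKO mice, which lack T cells and display the antibody. The methods give a larger number of CD4N cells for the cultures of the study, and they name mesenteric nodes beside the peripheral ones of the labels. Neither source says whether the RNA came from T cells freed of splenocytes, nor whether the 3 cultures of a genotype came from different mice, so that p-values measure only the spread between these cultures.

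Ikaros family proteins bind DNA through zinc fingers near their start and pair with themselves and each other through zinc fingers at their end. Ikaros recruits chromatin-remodelling and histone deacetylase complexes to lymphoid genes. Helios is best known from regulatory T cells, is also made by conventional T cells after activation, and Eos works with Foxp3 as a corepressor in regulatory T cells. Aiolos is abundant in B cells and rises as T cells differentiate. Pegasus, the most distant member, recognizes other DNA sites than the rest.

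The second zinc finger is shown because it alone of the first 3 encodes the same amino acids in Helios, Ikaros, Aiolos and Eos, while that of Pegasus differs. Its coding sequence in the transcript with the longest coding region of each gene is printed here from GENCODE M21 (GRCm38), with the codons of the zinc-binding cysteines and histidines in capitals. Fingers were located by the spacing of these residues and numbered from the start of the protein.
Ikzf1: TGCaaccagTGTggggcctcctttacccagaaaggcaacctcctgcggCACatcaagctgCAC
Ikzf2: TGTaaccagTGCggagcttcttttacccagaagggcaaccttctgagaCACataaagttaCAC
Ikzf3: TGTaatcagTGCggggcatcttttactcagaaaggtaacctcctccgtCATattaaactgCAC
Ikzf4: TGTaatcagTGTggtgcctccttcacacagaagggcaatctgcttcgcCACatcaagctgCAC
Ikzf5: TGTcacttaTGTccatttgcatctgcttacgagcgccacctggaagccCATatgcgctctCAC
These stretches of 63 bases lie at chr11:11754024-11754086 on the plus strand (Ikzf1, exon 6), chr1:69570581-69570643 on the minus strand (Ikzf2, exon 5), chr11:98488940-98489002 on the minus strand (Ikzf3, exon 5), chr10:128640229-128640291 on the minus strand (Ikzf4, exon 5) and chr7:131392501-131392563 on the minus strand (Ikzf5, exon 4). All are coding sequence. The Ikzf2 stretch shared 81.0% of its bases with that of Ikzf1 and 76.2% with those of Ikzf3 and Ikzf4, and in all 3 of these pairs the 21 codons specified the same 21 amino acids. In the first finger, 19 (Ikzf1), 17 (Ikzf3) and 21 (Ikzf4) of 21 amino acids were shared with Ikzf2. In the third finger these were 18, 17 and 20 of 21. By bases, the first fingers of Ikzf1 (84.1%) and Ikzf4 (85.7%) were nearer to that of Ikzf2 than their second fingers were. With the second finger of Ikzf5, the second finger of Ikzf2 shared 47.6% of its bases and 5 of 21 amino acids. Fingers were matched by number alone. The finger of 66 bases is the third in Ikzf5 and the fourth in Ikzf2, so equal numbers may not mark equivalent fingers in these 2 genes. Between Ikzf2 and Ikzf1, Ikzf3 or Ikzf4, the fingers were easier to tell apart by bases than by amino acids. The longest run of bases that transcripts of Ikzf2 shared with another member was 32, with Ikzf4, against fragments of 161 to 169 bases in these libraries.

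The authors' RSEM files give expected counts per gene, which sum to between 14783890 and 19675447 per library. Each gene's counts were normalized with edgeR's TMM method and the genotypes compared with edgeR's quasi-likelihood test over 13691 genes. A gene was called when its Benjamini-Hochberg adjusted p was under 0.05 and its fold change over 1.5. By this rule 23.0% of the genes tested were called, 11.1% higher and 11.8% lower in Foxo1TKO, and 42.7% of the genes had counts whose ranges in both genotypes were separate. The targeted gene itself, Foxo1, stood at 46.5 to 115 normalized counts in the Foxo1TKO libraries and at 1529 to 2285 in the Foxo1Ctrl libraries, so that no library went against its label. Cd4 was present in every library at 2410 to 8386 normalized counts, with Cd3e at 7457 to 11181, and the T cell markers Cd6 (780 to 6329) and Thy1 (319 to 3150) varied widely within each genotype.

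Helios transcripts were far more abundant when T cells lacked Foxo1. The Foxo1TKO libraries held 13485, 19519 and 24849 normalized counts of Ikzf2, and the Foxo1Ctrl libraries 1717, 3642 and 3689. Every Foxo1TKO library was above every Foxo1Ctrl library, and the lowest of the first group exceeded the highest of the second by a wide margin. The means were 19284 ± 5685 and 3016 ± 1125 normalized counts (SD, n = 3 each), a log2 fold change of 2.68 (SE 0.35, edgeR adjusted p = 0.00157). On the linear scale the fold change was 6.39, with a 95% interval of 3.64 to 11.2. Ikzf2 lies at chr1:69531214-69687245 on the minus strand (GRCm38). In bulk RNA, more cells that express a gene and more RNA per cell cannot be told apart, which holds for all results given here.

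**Figure D1:**
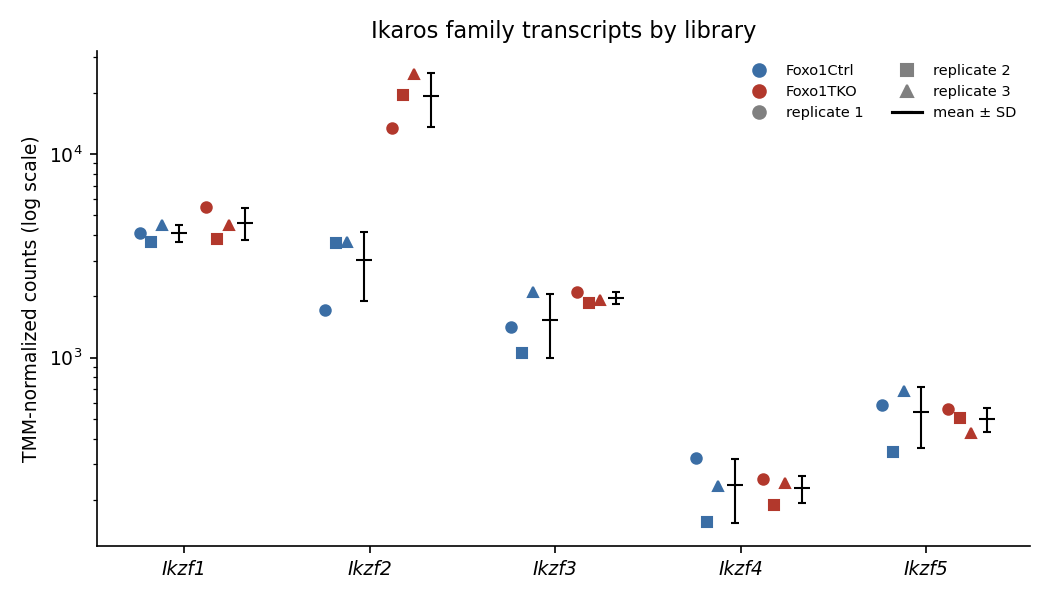
TMM-normalized counts (log axis) of the 5 Ikaros family genes in each library, blue for Foxo1Ctrl and red for Foxo1TKO, with symbols for the replicate and black bars for the mean ± SD of 3 libraries. For Ikzf2 the red points (13485 to 24849) lie clear of the blue ones (1717 to 3689), while for the other 4 genes the colours overlap.

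Ikaros and Aiolos, the other abundant members, were not called. Ikzf1 (chr11:11685003-11772926, plus strand) had 5497, 3842 and 4484 normalized counts in Foxo1TKO and 4100, 3699 and 4506 in Foxo1Ctrl. These ranges overlapped, and the log2 fold change was 0.17 with a 95% interval of -0.23 to 0.57 (edgeR adjusted p = 0.532). That interval reaches a fold change of 1.48 at its upper end, so a larger rise of Ikzf1 lies outside it. Ikzf3 (chr11:98464902-98546031, minus strand) had 2113, 1864 and 1920 normalized counts in Foxo1TKO and 1414, 1060 and 2100 in Foxo1Ctrl. Its Foxo1TKO libraries lay close together at the upper end of the spread of the Foxo1Ctrl libraries. The log2 fold change of Ikzf3 was 0.37 (-0.20 to 0.93, adjusted p = 0.321), and the interval leaves room for a fold change of up to 1.90.

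Eos and Pegasus were scarce and were not called either. Ikzf4 (chr10:128630843-128645991, minus strand) had 253, 190 and 241 normalized counts in Foxo1TKO and 321, 156 and 234 in Foxo1Ctrl. Its log2 fold change was -0.05 (-0.72 to 0.61, adjusted p = 0.917), and with the deposited normalized signal in place of counts its sign turned. Ikzf5 (chr7:131388652-131410521, minus strand) had 563, 506 and 426 normalized counts in Foxo1TKO and 588, 343 and 688 in Foxo1Ctrl. The log2 fold change of Ikzf5 was -0.11 (-0.74 to 0.51, adjusted p = 0.798). Both intervals are wide enough to hold a fold change over 1.5 in at least one direction, so neither gene can be said to be unaffected. Ikzf5 shares 3392 exon bases with Pstk on the opposite strand, which had 646 to 1130 normalized counts. Strandedness of the counting is not given in the sources used here, so reads of Ikzf5 and Pstk may not have been told apart. The antisense gene over Ikzf2, Gm29114, had at most 15.02 normalized counts in any library, very few beside those of Ikzf2.

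**Figure D2:**
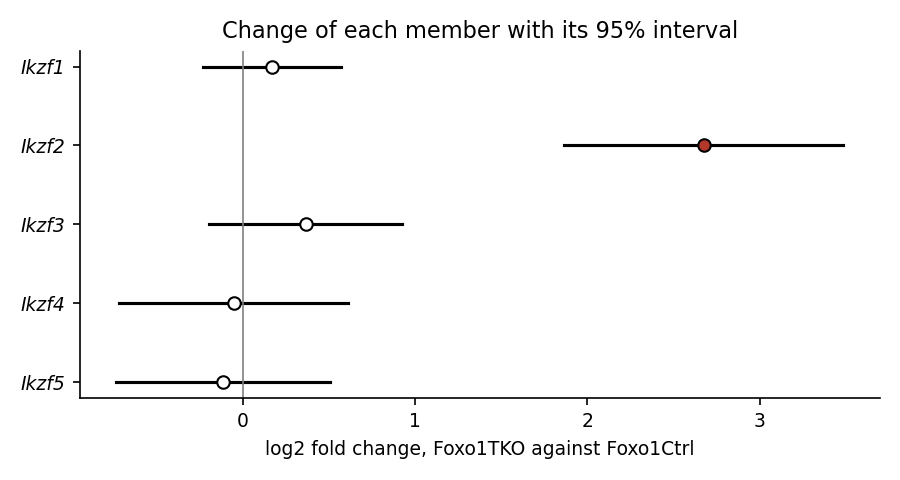
Log2 fold change (Foxo1TKO against Foxo1Ctrl, x axis) of each Ikaros family gene with its 95% interval from edgeR, filled where the gene was called. The interval of Ikzf2 (1.87 to 3.49) lies wholly above 0, and the intervals of the other 4 genes include 0.

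Thus 1 of 5 members was called, a share near the 23.0% of all genes. Counts that did not overlap were also found for 1 of 5, below the 42.7% of all genes. Of the 1525 genes called higher, 285 had a larger log2 fold change than Ikzf2. On the TPM scale, which gives the level of a gene per transcript length within a library, 69 of these 1525 genes had a higher mean in Foxo1TKO. By mean TPM, Ikzf2 held rank 533 of the 13691 genes in Foxo1TKO and rank 3217 in Foxo1Ctrl.

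The levels of members can be compared with each other on the TPM scale. Ikzf2 stood at 240, 335 and 416 TPM in the Foxo1TKO libraries and at 23.5, 43.5 and 56.0 TPM in the Foxo1Ctrl libraries. Ikzf1 stood at 99.7, 60.6 and 68.5 TPM in Foxo1TKO and at 70.7, 46.2 and 74.1 TPM in Foxo1Ctrl. Ikzf3 ranged from 41.7 to 55.9 TPM in Foxo1TKO and from 21.7 to 49.9 TPM in Foxo1Ctrl. Ikzf5 stood at 11.6, 9.19 and 6.74 TPM in Foxo1TKO and at 11.8, 4.78 and 14 TPM in Foxo1Ctrl, and Ikzf4 ranged from 1.78 to 4.86 TPM over all 6 libraries. In every Foxo1TKO library the order was Ikzf2, Ikzf1, Ikzf3, Ikzf5 and Ikzf4, and no neighbours in that order overlapped in range. In every Foxo1Ctrl library Ikzf1 came first, but Ikzf1, Ikzf2 and Ikzf3 overlapped in range. Ikzf3 exceeded Ikzf2 in Foxo1Ctrl replicate 1, and Ikzf2 exceeded Ikzf3 in replicates 2 and 3. Ikzf5 and Ikzf4 also overlapped in range in Foxo1Ctrl, although Ikzf5 was the higher in each library.

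Summed over the 5 genes, the family reached 411, 455 and 537 TPM in Foxo1TKO and 143, 118 and 197 TPM in Foxo1Ctrl. Helios made up 58.4%, 73.6% and 77.6% of this sum in Foxo1TKO and 16.5%, 36.9% and 28.3% in Foxo1Ctrl. These shares averaged 69.8% ± 10.1 and 27.2% ± 10.3 (SD, n = 3 each; exact two-sided permutation test, p = 0.1, the smallest that 3 against 3 libraries allow). The share of Ikaros was 16.8% ± 6.47 in Foxo1TKO and 42.1% ± 6.50 in Foxo1Ctrl, and that of Aiolos 10.6% ± 2.91 and 22.0% ± 3.47. The shares sum to the whole, so a higher share of Helios lowers the others, and the TPM of Ikzf1 and Ikzf3 overlapped between the genotypes.

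**Figure D3:**
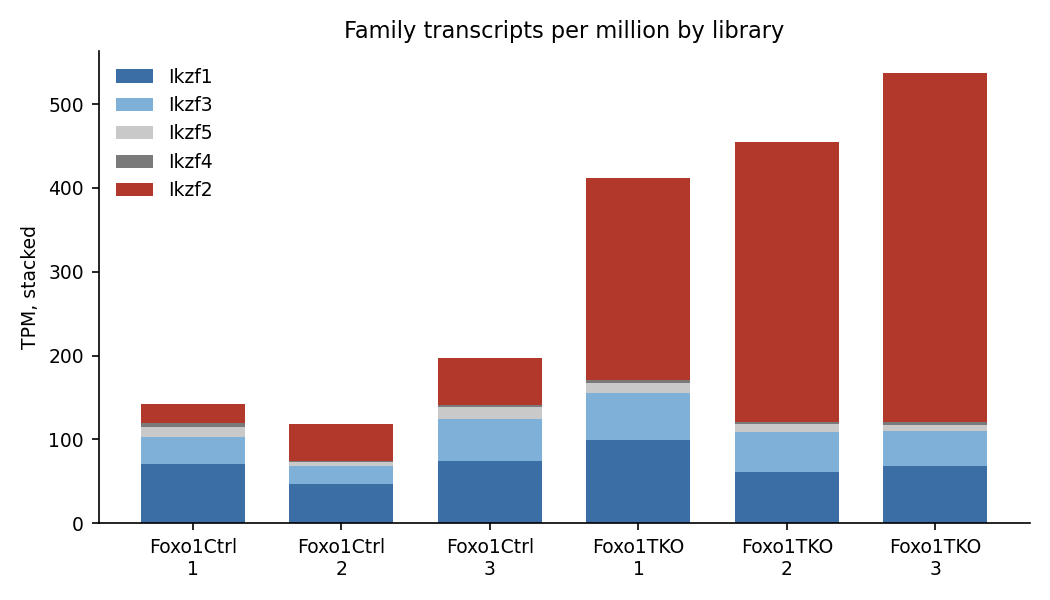
TPM of the 5 Ikaros family genes stacked for each library, so that the height of a bar is the family sum. The Ikzf2 segment (red) fills 58.4% to 77.6% of the Foxo1TKO bars and 16.5% to 36.9% of the Foxo1Ctrl bars.

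Whether Ikzf2 changed differently from its relatives was tested through their log2 TPM ratio within each library. The log2 ratio of Ikzf2 to Ikzf1 was 1.27, 2.47 and 2.60 in Foxo1TKO and -1.59, -0.09 and -0.40 in Foxo1Ctrl, so that Helios transcripts exceeded Ikaros transcripts in each of the former and in none of the latter. The mean log2 ratio was higher in Foxo1TKO by 2.81 for Ikzf1, 2.50 for Ikzf3, 2.99 for Ikzf4 and 3.11 for Ikzf5. All 4 ratios were higher in every Foxo1TKO library than in any Foxo1Ctrl library (exact two-sided permutation test, p = 0.1 for each, the smallest possible, 4 ratios tested, 0.1 after Benjamini-Hochberg adjustment). The ratios share their numerator and are not independent of each other. That numerator is the Ikzf2 level already given above, so the ratios are no evidence apart from it.

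The estimated mean length of Ikzf2 transcripts was also shorter in the Foxo1TKO libraries. The RSEM files give for each gene and library a transcript length weighted by the estimated abundance of its transcripts, which moves when the mix of transcripts moves. For Ikzf2 this length was 4262, 3998 and 3839 bases in Foxo1TKO and 5157, 4912 and 4646 bases in Foxo1Ctrl. Each Foxo1TKO library had a shorter mean than any Foxo1Ctrl library, 4033 ± 213 against 4905 ± 255 bases (SD, n = 3 each; exact two-sided permutation test, p = 0.1, the smallest possible, 5 genes tested). Among the 10517 genes whose length varied between libraries, 13.5% had lengths that did not overlap between genotypes, and 6.29% were shorter in every Foxo1TKO library. A change larger in size than that of Ikzf2 was found for 6.86% of these genes. The other 4 members had overlapping lengths, with exact permutation p from 0.2 to 0.9 (two-sided, n = 3 each).

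**Figure D4:**
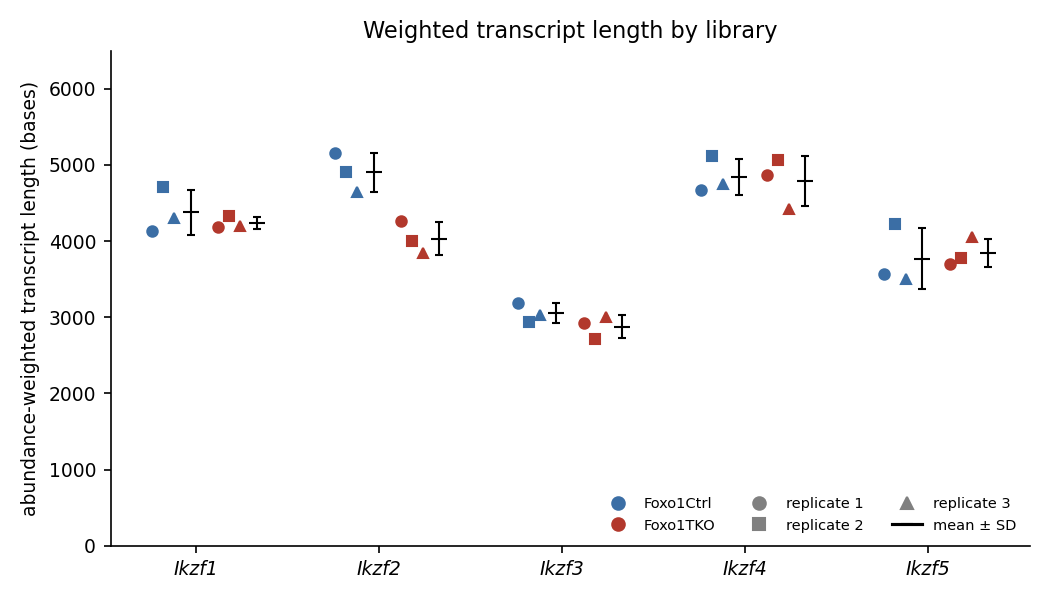
Abundance-weighted transcript length in bases of the 5 Ikaros family genes in each library, blue for Foxo1Ctrl and red for Foxo1TKO, with black bars for the mean ± SD of 3 libraries. For Ikzf2 the red points (3839 to 4262 bases) lie below the blue ones (4646 to 5157 bases).

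The annotation holds 9 transcripts of Ikzf2, and 1 of them is much longer than the rest. It spans 9278 bases, of which 8279 lie in its last exon (chr1:69531214-69539492), and 722 bases of that exon are coding. The next longest transcript has 2483 bases and the shortest 361. If these annotated lengths are those used in the counting, the long transcript made up between 20.0% and 43.7% of Ikzf2 transcripts over the Foxo1TKO libraries and between 31.8% and 53.8% over the Foxo1Ctrl libraries. The bounds overlap, and the estimated abundances of single transcripts were not used here. Because TPM divides by this length, the TPM ratio of the group means of Ikzf2 (8.06) exceeded the fold change in counts (6.39), and edgeR with the effective lengths as offsets gave a log2 fold change of 2.97. Both readouts place Ikzf2 above its level in Foxo1Ctrl.

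The genes most like each member in their pattern over the 6 libraries were taken among the 9234 genes whose normalized counts averaged 100 or more. Likeness was measured as Pearson's r of log2 values, without a test. The genes with the highest r were picked, so r is given as a description only. Nkrf, an NF-κB repressing factor, came closest to Ikzf2 (r = 0.999), followed by the predicted gene Gm2423, Hmgn1, which codes for a nucleosome-binding protein, Tmod1, which codes for an actin-capping protein, Fgfr1op, which codes for a centrosomal protein, and Fam136a (r = 0.997 for the last). All 6 were called higher in Foxo1TKO, which follows from their being picked for likeness to Ikzf2 and is no further evidence. Tmod1 had the largest change, from 204 to 3428 mean normalized counts (log2 fold change 4.06, SE 0.49). Hmgn1 went from 2206 to 8173 mean normalized counts (log2 fold change 1.89, SE 0.28). The genes closest to the other members were not called. Fiz1 and Cherp followed Ikzf1 (r = 0.986 and 0.983), Brf1 and Arhgap9 followed Ikzf3 (0.992 and 0.981), Tubgcp6 and Prdm2 followed Ikzf4 (0.991 and 0.987), and Tex261 and Limd2 followed Ikzf5 (0.998 and 0.996).

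Ikaros family factors act through the NuRD, Sin3 and CtBP corepressors. All 17 listed corepressor genes were tested, and 5 were called higher and none lower in Foxo1TKO, against 11.1% and 11.8% of all genes. The median log2 fold change of the 17 genes was 0.12, beside 0.01 for all genes. Mbd3, which codes for a core subunit of NuRD, had 889, 1056 and 1031 normalized counts in Foxo1TKO and 156, 181 and 256 in Foxo1Ctrl, with a log2 fold change of 2.32 (SE 0.23, edgeR adjusted p = 0.000434). Its groups were far apart. The histone deacetylase genes Hdac2 and Hdac1 rose by log2 fold changes of 1.39 (SE 0.34, adjusted p = 0.0212) and 0.94 (SE 0.19, adjusted p = 0.0100). Rbbp7, which codes for a histone-binding subunit of both NuRD and Sin3, rose by 1.15 on the log2 scale (SE 0.21, adjusted p = 0.00620), and Ctbp1 by 0.64 (SE 0.17, adjusted p = 0.0275). The chromatin remodellers of NuRD themselves were not called with all libraries, with mean normalized counts of 798 in Foxo1TKO and 1160 in Foxo1Ctrl for Chd3 and of 2433 and 1974 for Chd4. Of the listed genes, Mbd2, Gatad2b and Mta3 went the other way, lower in every Foxo1TKO library than in any Foxo1Ctrl library, without being called. Their log2 fold changes were -0.83, -0.35 and -0.31 (edgeR adjusted p = 0.0714, 0.166 and 0.225). Among all genes, 42.7% had separate ranges in either direction. Mbd3, Hdac1 and Rbbp7 were called when any 1 library was left out. The call of Ctbp1 was lost whichever library was left out, and that of Hdac2 without Foxo1TKO replicate 2 or 3 or Foxo1Ctrl replicate 1 or 3, so that 3 or 4 of the 5 calls stood (largest adjusted p 0.0841 for Ctbp1 and 0.0816 for Hdac2). Chd3 was called lower without Foxo1Ctrl replicate 2 (log2 fold change -0.73, edgeR adjusted p = 0.0113).

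Cereblon is the receptor of a ubiquitin ligase through which, in human cells, lenalidomide and related drugs degrade Ikaros and Aiolos. No such drug is named for these mouse cultures. Of the 5 genes of this ligase 1 was called, a share near the 23.0% of all genes. This gene, Cul4b, which codes for a scaffold subunit, was lower (580 ± 11.95 against 1013 ± 57.2 normalized counts, SD, n = 3 each, log2 fold change -0.80, edgeR adjusted p = 0.00597). Crbn, the gene of cereblon itself, had 4813 ± 499 and 5548 ± 723 normalized counts (adjusted p = 0.393).

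Il2, a gene that Ikaros represses in T cells, was the only one called among the 4 cytokine and helper genes tested of the 7 listed, where 23.0% of all genes were called. It had 5.92, 7.90 and 17.2 normalized counts in Foxo1TKO and 47.7, 80.1 and 32.0 in Foxo1Ctrl. The groups did not overlap, at a log2 fold change of -2.28 (SE 0.52, edgeR adjusted p = 0.0160), but the adjusted p was 0.0717 without Foxo1TKO replicate 2. By its Foxo1TKO libraries alone Il2 would not have passed the filter on low counts, which its Foxo1Ctrl libraries met. The call of Il2 is therefore given as a description. Ifng had 100 ± 51.9 and 51.3 ± 10.6 normalized counts (adjusted p = 0.126). The genes of the helper regulators T-bet and Gata3, Tbx21 and Gata3, had overlapping counts, and Il4, Il10 and Il17a were under the filter. Of the 6 Notch genes listed, which Ikaros restrains in developing T cells, 2 could be tested. Hes1 was called higher, at 18.6 to 26.3 normalized counts in Foxo1TKO and at no more than 0.969 in Foxo1Ctrl. It passed the filter only through the Foxo1TKO libraries, so a gene kept in this way had to differ, and its call is given as a description. Notch1 was called lower, at 199 ± 46.4 against 429 ± 85.0 normalized counts (log2 fold change -1.10, edgeR adjusted p = 0.0150), a call lost without Foxo1TKO replicate 2 or 3 or Foxo1Ctrl replicate 1 or 3 (largest adjusted p 0.0744).

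**Figure D5:**
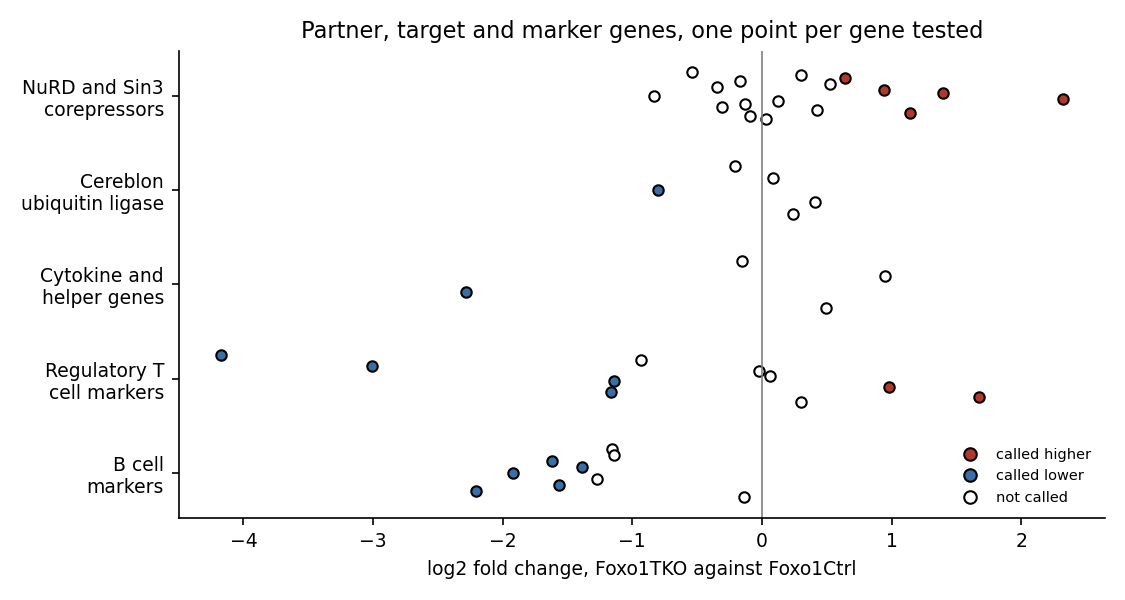
Log2 fold change (Foxo1TKO against Foxo1Ctrl, x axis) of the genes tested from 5 lists, one point per gene, red where called higher, blue where called lower and white where not called; vertical shifts within a list only separate the points. Called were 5 corepressor genes higher and 0 lower, and 0 B cell markers higher and 5 lower, beside 11.1% higher and 11.8% lower of all genes. Leaving out single libraries left 3 or 4 of these corepressor calls and 2 to 5 of these B cell calls. Among these B cell markers, Cd22 passed the filter only through the Foxo1Ctrl libraries. Il2 (cytokine and helper genes) and Gpr83 (regulatory T cell markers), both called lower, would not have passed it by their Foxo1TKO libraries alone.

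Since Helios marks many regulatory T cells, the markers of these cells are given beside it. Foxp3, which defines the lineage, had 10.1, 14.9 and 6.44 normalized counts in Foxo1TKO and 15.5, 27.4 and 20.3 in Foxo1Ctrl. It was thus scarce in all libraries and lower in each Foxo1TKO library, without being called (log2 fold change -0.93, edgeR adjusted p = 0.165). Of the 10 regulatory T cell markers, 2 were called higher and 4 lower, beside 11.1% and 11.8% of all genes, with a median log2 fold change of -0.48. The inhibitory receptor gene Ctla4 fell from 5618 ± 445 to 310 ± 41.8 normalized counts (SD, n = 3 each, log2 fold change -4.18, adjusted p = 3.42e-05), and Gpr83 had a log2 fold change of -3.01 (adjusted p = 0.0129). Gpr83 was scarce, at 10.1, 1.75 and 16.1 normalized counts in Foxo1TKO and 63.2, 51.5 and 127 in Foxo1Ctrl. By its Foxo1TKO libraries alone Gpr83 would not have passed the filter on low counts, so its call is given as a description. With 1 library left out, its largest edgeR adjusted p was 0.0480. Tigit, the gene of another inhibitory receptor, rose by 1.68 on the log2 scale (adjusted p = 0.00483), and Lrrc32 rose by 0.98 (adjusted p = 0.0137). Nrp1 and Izumo1r were called lower at log2 fold changes of -1.16 and -1.14. The calls of Nrp1 and Lrrc32 were lost on leaving out Foxo1TKO replicate 2 or Foxo1Ctrl replicate 1, and that of Nrp1 also without Foxo1TKO replicate 3 (largest adjusted p 0.0938 for Nrp1 and 0.0656 for Lrrc32).

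Among the markers of other cells than CD4 T cells, only those of B cells and plasma cells held calls with all 6 libraries. The 10 B cell markers summed to 10.9 to 13.4 TPM in Foxo1TKO and 28.6 to 35.4 TPM in Foxo1Ctrl, and 5 of the 9 tested were called lower and none higher, beside 11.8% and 11.1% of all genes. Leaving out single libraries left 2 to 5 of these calls, with Ms4a1 and Cd79b kept in every case. The fewest remained without Foxo1Ctrl replicate 3 or without Foxo1TKO replicate 2, when Blk was called lower instead (edgeR adjusted p = 0.0208). Cd22, among the 5 called, had 4.29 to 7.02 normalized counts in Foxo1TKO and 11.4 to 27.4 in Foxo1Ctrl. It passed the filter only through the Foxo1Ctrl libraries, so it had to differ, and its call is given as a description. Plasma cell markers summed to 22.1 to 53.0 TPM and 99.7 to 120 TPM, with both genes tested, Mzb1 and Jchain, called lower. The call of Jchain was lost without Foxo1TKO replicate 3 or Foxo1Ctrl replicate 1 or 2 (largest adjusted p 0.0562). The 10 T cell markers summed to 5989 to 6906 TPM in Foxo1TKO and 7311 to 7448 TPM in Foxo1Ctrl, and 1 of them, Cd28, was called lower. Macrophage markers summed to 4.43 to 5.84 TPM in Foxo1TKO and 2.37 to 3.01 TPM in Foxo1Ctrl, and the one gene of the list that could be tested, Cd68, was not called (log2 fold change 0.74, edgeR adjusted p = 0.0990). Neutrophil markers summed to 0.28 to 5.39 TPM in Foxo1TKO and 0 to 0.31 TPM in Foxo1Ctrl. Sums for NK cells (2.31 to 3.48 and 2.44 to 3.65 TPM) and dendritic cells (2.42 to 3.74 and 2.01 to 3.71 TPM) overlapped between the genotypes. The genes Klra8, C1qa, Cd209a and Retnlg were at 0 in all 6 libraries. Erythroid markers summed to 34.7 to 64.2 TPM in Foxo1TKO and 40.0 to 68.4 TPM in Foxo1Ctrl. The CD8 T cell marker Cd8b1 had 100.9 ± 13.8 and 154 ± 8.81 normalized counts (log2 fold change -0.61, edgeR adjusted p = 0.0856), and Cd8a was under the filter. The part of these cells in the values of Ikzf1 to Ikzf5 was not tested.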

How the data were processed

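RNA-seq of 3 Foxo1TKO and 3 Foxo1Ctrl cultures was analysed, grouped by the genotype in the sample labels. The authors aligned reads with STAR 2.7.6a to GRCm38 (Ensembl release 101) and deposited RSEM 1.3.1 expected counts per gene, which are not normalized, together with TPM and with lengths per gene. They also deposited a normalized signal, for which counts were scaled by DESeq2 size factors and relative effective lengths. Trimming and strandedness are not given in the sources used here. Expected counts were rounded to whole numbers. Genes reaching 10 counts in 3 or more libraries were compared with edgeR 4.0.16 in R 4.3.3 (TMM, glmQLFit, glmQLFTest, prior count 1, genotype as the only term), with Benjamini-Hochberg adjustment over all 13691 genes. Intervals are 95% intervals from the standard error of the fit. Shares, ratios and lengths were compared by exact permutation tests over libraries (scipy 1.17.1). DESeq2 1.42.0 and limma 3.58.1 served as alternatives. The scripts were tested on simulated counts.

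The members and gene lists were chosen with earlier results of these data known. Named genes were the 5 members, Foxo1, up to 4 called genes with the largest change per partner or target list, and the genes closest to each member in pattern (6 for Ikzf2, 2 for each other). The remaining corepressor called, and uncalled genes named beside a list, were added after their values were seen. Gene models came from GENCODE M21, which holds 55141 of the 55487 gene identifiers. For Ikzf4, 8 of its 10 transcripts in the count files are in that annotation. Library totals ran from 14783890 to 19675447 counts.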

Additional observations from a re-analysis of the deposited data

How the results depend on the processing

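Ikzf2 was called higher and was the only member called under every alternative run. Its log2 fold change lay between 2.38 and 2.86 when any 1 library was left out (largest edgeR adjusted p 0.00911) and between 2.67 and 3.02 with DESeq2, DESeq2 or upper quartile scaling, other filters on low counts, effective-length offsets, the replicate block or limma on the deposited signal. Leaving out 1 library gave log2 fold changes of 0.0089 to 0.29 for Ikzf1, 0.18 to 0.67 for Ikzf3, -0.26 to 0.22 for Ikzf4 and -0.34 to 0.099 for Ikzf5. The sign of Ikzf4 turned without Foxo1TKO replicate 2 (0.073) or Foxo1Ctrl replicate 1 (0.22), and that of Ikzf5 without Foxo1Ctrl replicate 3 (0.099). With limma on the deposited signal Ikzf4 stood at 0.024 with a pseudocount of 1 and at 0.021 with a pseudocount of 10. The cause was not tested, and no value of either gene passed the threshold. Over all genes, 3144 were called, and leaving out 1 library gave 1854 to 3321 calls, with 874 to 1701 higher and 980 to 1620 lower. The fewest came without Foxo1TKO replicate 2, followed by 2031 (942 higher) without Foxo1Ctrl replicate 1; each of these fits has fewer libraries. The shares, the Ikzf2 ratios and the transcript lengths stayed within the spread between libraries under their alternatives.

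Libraries with the same number in both genotypes did not deviate together throughout (correlations 0.589, 0.344 and -0.268 for numbers 1 to 3, and Foxo1TKO replicate 3 correlated best with Foxo1Ctrl replicate 2), so the numbers were not treated as pairs. Foxo1TKO replicate 1 deviated with Foxo1Ctrl replicates 1 and 3 (0.589 and 0.342) and against Foxo1Ctrl replicate 2 (-0.635). Part of the spread within each genotype was thus shared by both genotypes, and its cause was not tested. With the replicate block in edgeR, 3318 genes were called (1657 higher, 1661 lower), and Ikzf2 had a log2 fold change of 2.71 (adjusted p = 0.000247).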
